A study of Homo sapiens with 6 samples.

Results

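The chaperone genes described here are the 81 of 21863 gene symbols in the deposited values that belong by name to the HSP70 (HSPA followed by a digit), small HSP (HSPB), chaperonin (HSPD1, HSPE1), HSP110 (HSPH1), HSP90 and J protein (DNAJ) families. All 81 were matched to an annotated gene, 8 of them a pseudogene. The study asked which mRNAs join Argonaute 2 (Ago2), the protein that carries a miRNA to its targets, when miR-195 or miR-497 is added to Hep G2 cells, a line grown from a human liver tumor. It lists HSPA8 and DNAJC5 among its candidate targets of miR-195. The study drew candidates from Ago2-IP enrichment in these same libraries together with predicted target sites in the 3′UTR. It narrowed them by a decrease on separate expression arrays, taken at a later time after transfection. Since these libraries were part of that choice, the values of HSPA8 and DNAJC5 with miR-195 are a description and not independent evidence. The 6 libraries are 1 Ago2-IP library and 1 total RNA library of each of 3 conditions. Cells of the first condition were not transfected (NT), and the labels give them a time of 0 hours. Cells of the other conditions received 5 nM of dsRNA mimicking miR-195 or miR-497 with a lipid reagent and were lysed at 24 hours, when RNA bound to Ago2 was precipitated with an antibody against human Ago2. All libraries come from the same cell line with 1 library per condition and kind, so replicate spread is unknown and no test between conditions was possible. Since NT cells had neither mimic nor transfection and carry another time, effects of the mimic, of the transfection and of time cannot be told apart.

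Molecular chaperones keep proteins from clumping while they fold. HSP70 proteins bind and release unfolded stretches in an ATP cycle, J proteins bring them their clients and start that cycle, HSP110 proteins restart it by exchanging the nucleotide, and HSP90 proteins act later on kinases, receptors and other clients. HSPD1 and HSPE1 form a closed folding chamber in mitochondria, small HSPs hold unfolded proteins without ATP, and in liver cells, which secrete large amounts of protein, the members in the endoplasmic reticulum (ER) fold what is to be exported.

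The miRNAs share the seed, bases 2 to 8 counted from the 5′ end, which is set in capitals in both mature sequences (RefSeq, GRCh38.p14):
hsa-miR-195-5p: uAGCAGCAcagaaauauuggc
hsa-miR-497-5p: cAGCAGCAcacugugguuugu
The 7 bases TGCTGCT pair with this seed. They were found in an annotated 3′UTR (GENCODE release 44 lifted to GRCh37, which is hg19) of 24 of the 72 chaperone genes with a 3′UTR (33.3%), compared with 25.3% of all genes with a 3′UTR. The sites of the 5 protein-coding genes with the lowest change in total RNA with miR-195, among the 54 genes compared below, follow. They are given on the strand of the mRNA, with the match in capitals and up to 8 bases of 3′UTR on either side.
HSPA1B first site, chr6:31797712-31797718, plus strand: aaggacttTGCTGCTgttttcct
HSPA1B second site, chr6:31797750-31797756, plus strand: cagctcttTGCTGCTtcacttct
DNAJB4 first site, chr1:78482397-78482403, plus strand: ttctgaaaTGCTGCTatagggct
DNAJB4 second site, chr1:78482880-78482886, plus strand: acactaacTGCTGCTtatggata
DNAJB4 last site, chr1:78483637-78483643, plus strand: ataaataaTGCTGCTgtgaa
DNAJC9, chr10:75002825-75002831, minus strand: tctgttcaTGCTGCTttctgcga
DNAJC24, chr11:31453436-31453442, plus strand: cattgcacTGCTGCTatgctgaa
DNAJC5 first site, chr20:62565923-62565929, plus strand: acggcagcTGCTGCTgtatagat
DNAJC5 second site, chr20:62566592-62566598, plus strand: gtcattcaTGCTGCTgtcccctg
The first site of DNAJB4 and the site of DNAJC24 are followed by an A, which completes the 8-base form TGCTGCTA, present in 5 chaperone genes in all. The site search of the study also drew on target databases, which were not used here. HSPA8, the constitutive HSP70 of the cytosol, has no TGCTGCT in an annotated 3′UTR. Its 3′UTR holds the 6 bases GCTGCT, and its coding sequence in the canonical transcript holds TGCTGCT 3 times. Of the 54 genes compared below 19 hold it at least once in coding sequence, among them HSPA5, DNAJB11 and HSP90AB1. The share over all genes is not given here, so this count has no background.

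Values are RPKM, reads scaled to gene length and to the mapped reads of the library, so levels of genes can be compared within a library. Between libraries this scaling is not complete. The summed RPKM of all genes was 311114 to 333420 in total RNA and 67344.5 to 116069 in Ago2-IP. The number of mapped reads, estimated from the RPKM of genes with known length, was 24.8 M to 31.1 M reads in total RNA and 10.7 M to 16.9 M reads in Ago2-IP. All 10 liver genes checked were above 0 in the total RNA libraries, with AFP at 4884 RPKM and APOA2 at 3133 RPKM in total RNA of NT cells, while 10 genes of blood, stroma, endothelium, brain, heart and pancreas islets summed to 1.10 RPKM there and PTPRC, CD3E, MYH6 and INS were listed at 0. A difference between libraries is given as a ratio of RPKM or its log2, with a 95% counting interval that covers the counting of reads alone and not the variation between cultures. For genes whose whole reads could not be recovered from the RPKM, among them HSPA1B, HSPA8, HSPD1, HSPB1, DNAJC9, HSP90AA1, HSP90AB1 and HSP90B1, the interval rests on approximate read numbers. A gene is called higher or lower when it lay at least 1.5-fold from the median change of all genes with a mean RPKM of at least 1. Of the 81 chaperone genes 54 reached that level and were compared.

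Many chaperone genes have close copies. Of the 36-base windows of the canonical transcript, 72.7% of HSPA1B, 62.0% of HSPD1, 56.1% of HSPE1, 44.9% of HSPA8, 40.4% of HSP90AA1 and 37.1% of HSP90AB1 were found a second time in the genome, and 11 of the 54 genes had 20% or more such windows. How reads with several matches were shared out is not given in the sources used here, so the values of these genes are less certain than those of the other members.

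Changes between libraries moved with the base composition of the transcript. Across 10577 genes the log2 ratio in total RNA with miR-497 had a Spearman correlation of 0.75 with the GC content of the canonical transcript, and in Ago2-IP with miR-195 it was 0.56 across 10626 genes. It was 0.28 in total RNA with miR-195 and -0.26 in Ago2-IP under miR-497. For the fold enrichment score, described further below, it was 0.44 with miR-195 and -0.71 under miR-497. These are descriptions across genes of the same libraries, and genes are not independent replicates. Chaperone transcripts ran from 32.5% GC in DNAJB14 to 65.3% in HSPB1, and 30 of the 54 lay under 45%. Calls are therefore also counted against the median of genes in the same 5-point bin of GC content, a comparison added once the data had been seen. What produced the relation with GC content was not tested.

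In total RNA of NT cells the levels of the 81 genes spanned from 0 to 1075 RPKM, and together they made up 1.98% of the summed RPKM. HSP90AB1, the constitutive HSP90 of the cytosol, was at 1075 RPKM, HSPA8 at 966, HSPD1 at 761, HSP90B1, the HSP90 of the ER, at 565, and HSP90AA1, the inducible HSP90, at 495. These 5 genes carried 61.0% of the chaperone RPKM. HSPA5 (BiP), the HSP70 of the ER, followed at 342, HSPE1 at 289.8, DNAJA1, a J partner of cytosolic HSP70, at 258, and the HSP110 genes HSPA4 at 186 and HSPH1 at 140.1 RPKM. With miR-195 the 10 highest genes were the same, and with miR-497 DNAJB11 at 113 RPKM stood just above HSPH1 at 111, as the plot of levels by library shows.

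**Figure D1:**
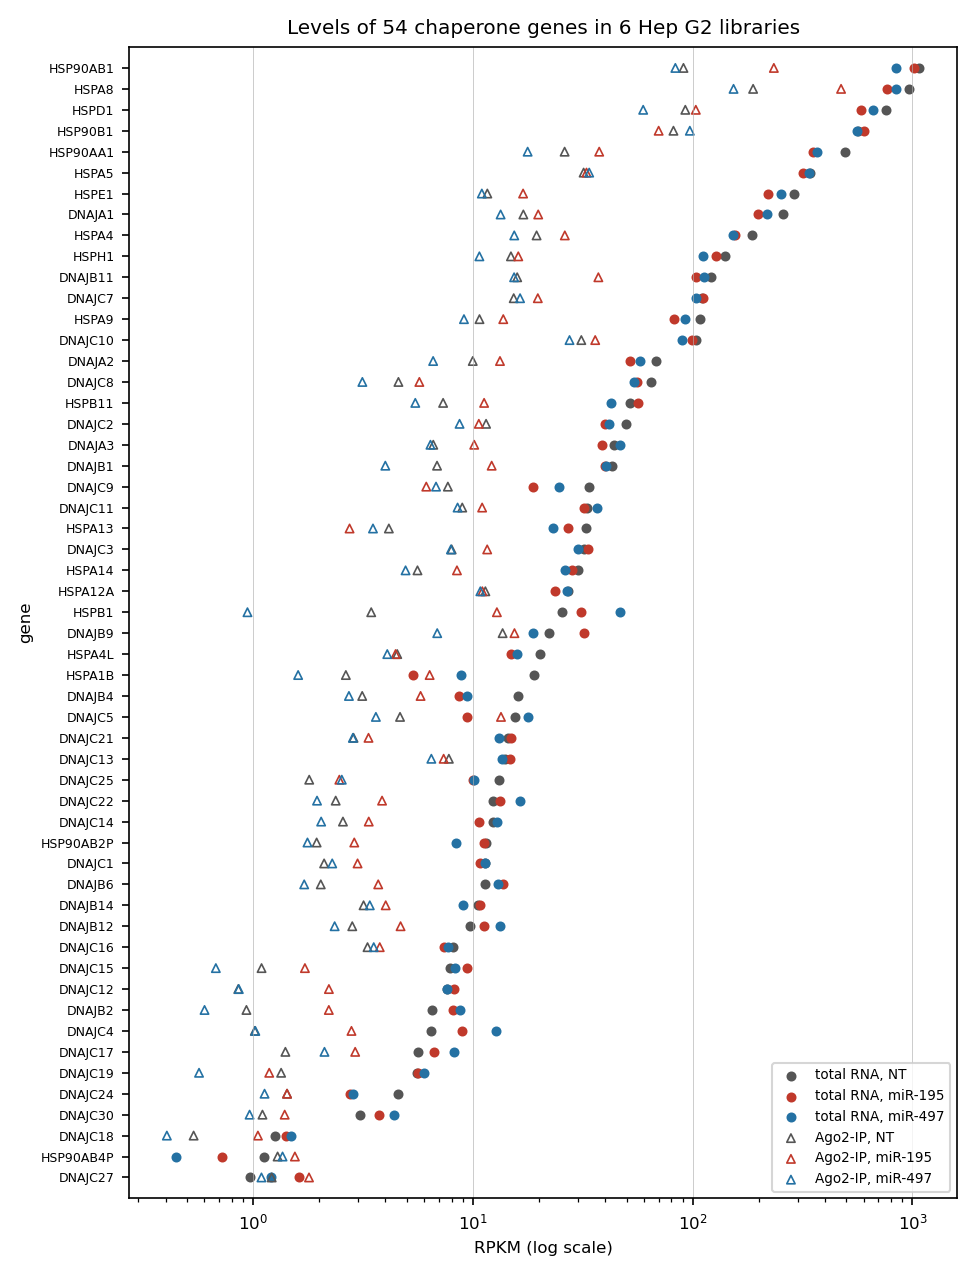
RPKM on a log scale of the 54 chaperone genes with a mean RPKM of at least 1, ordered by their level in total RNA of NT cells. Filled circles are total RNA libraries and open triangles Ago2-IP libraries, 1 library per symbol and color, and triangles lie left of circles for most genes, with HSP90AB1 at 1075 RPKM at the top and DNAJC27 at 0.972 at the bottom.

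At the low end, DNAJB3, DNAJB8, HSPB3 and DNAJC5B were listed at 0 in all 6 libraries, and 27 genes had a mean RPKM under 1. Among them HSPA6, a strictly heat-induced HSP70, was at 0.0152 RPKM in NT cells and listed at 0 with either mimic. Of the HSP70 genes HSPA2, known for its role in the testis, was at 0.0730 RPKM, and of the small HSPs HSPB8 was at 0.727, while HSPB1 (HSP27) reached 25.4 RPKM.

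In the Ago2-IP library of NT cells the chaperone genes made up 1.09% of the summed RPKM. The ratio of Ago2-IP to total RNA in NT cells had a median of 0.182 over the 54 genes against 0.277 over 10825 genes, and 41 of the 54 lay below the all-gene median. The lowest ratios were 0.0401 for HSPE1, with a counting interval from 0.0360 to 0.0447, and 0.0528 for HSP90AA1 (interval 0.0509 to 0.0547), while HSPA8 was at 0.195 (0.192 to 0.198). At the other end of the protein-coding genes were DNAJC27, a J protein with a small GTPase domain, at 1.25 (log2 of 0.32), DNAJB9, an ER J protein, at 0.612 (0.573 to 0.655) and DNAJC13, which acts at endosomes, at 0.555 (0.528 to 0.584). A ratio below the all-gene median was not particular to chaperone genes. Of the 10 liver genes checked above 9 lay below it, and so did 8 of 8 subunits of the cytosolic chaperonin CCT. Which libraries had poly-A selection is not given in the sources used here.

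The comparison of each mimic with NT cells in total RNA asks which mRNAs lost or gained abundance. With miR-195, 6 of the 54 chaperone genes were lower and 1 was higher, while 6.31% of 10821 genes were lower and 6.4% higher. The lower genes were HSPA1B, DNAJB4, DNAJC9, DNAJC24, DNAJC5 and the pseudogene HSP90AB4P, and the higher gene was DNAJC27. The median log2 change of the chaperone genes was -0.10, against -0.0066 for all genes, and 33 of 54 lay below the all-gene median.

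With miR-497, 4 of the 54 were lower (3.99% of 10826 genes) and 2 were higher (10.1%). HSP90AB4P, HSPA1B, DNAJB4 and DNAJC24 were the lower genes, and DNAJC4 and HSPB1 the higher ones. The median log2 change was -0.12 against 0.047 for all genes, and 38 of 54 lay below. Since both mimics were set against the same NT library, values for the mimics are given side by side and are not separate support for each other.

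**Figure D2:**
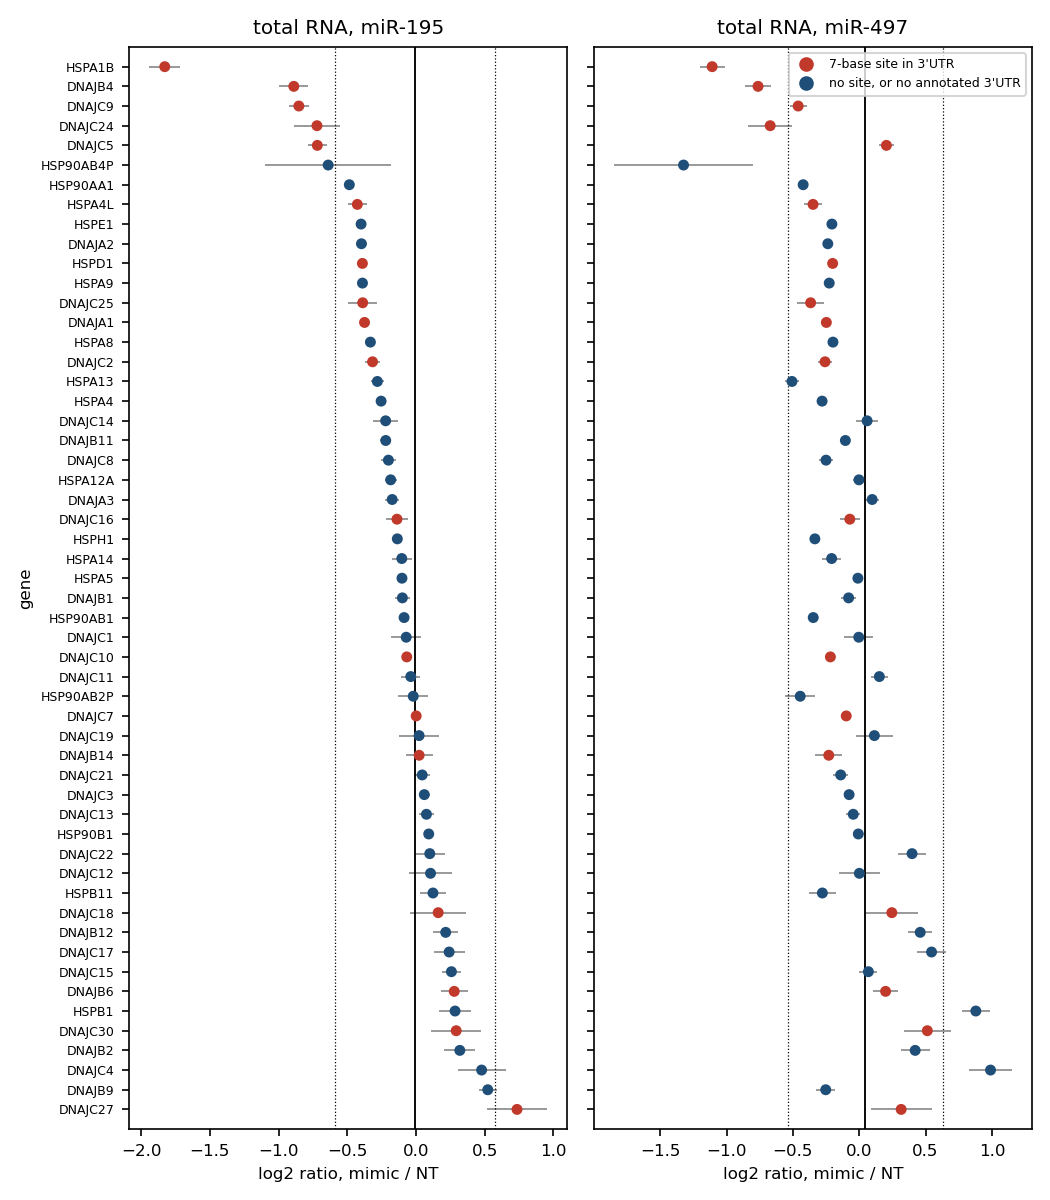
Log2 ratio of RPKM in total RNA, mimic to NT, of the 54 chaperone genes in the order of the change with miR-195 (left), with the change with miR-497 on the right. Bars are 95% counting intervals, the solid line is the median of all genes and the dotted lines lie 1.5-fold from it, and red points, genes with TGCTGCT in a 3′UTR, make up all 5 of the lowest points on the left.

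Of the 3 compared HSP70 genes of the cytosol, HSPA1B, a heat-inducible HSP70, had the lowest ratios. It was at 19.0 RPKM in NT cells, 5.36 with miR-195 and 8.82 under miR-497. Its ratio was 0.282 (0.260 to 0.305) with miR-195 and 0.464 (0.435 to 0.495) under miR-497. HSPA1A encodes an identical protein and shares most windows with HSPA1B, and it was listed at 0.732, 0.0421 and 0.319 RPKM in the same order, with no TGCTGCT in its 3′UTR. As reads of this pair can be split between the genes, the separate levels are uncertain. The log2 change of HSPA1B from genes of similar GC content was -1.93 and -1.48 in the same order.

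HSPA8 was at 966 RPKM in NT cells, 767 with miR-195 and 842 under miR-497. The ratios of 0.795 (0.788 to 0.801) and 0.872 (0.865 to 0.879) did not reach the fold for a call. HSPA14, a cytosolic HSP70 found at ribosomes, was at 30.2, 28.1 and 26.2 RPKM. All 3 compared HSP70 genes of the cytosol thus lay below the all-gene median with each mimic, by amounts that differed widely.

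HSPA9, the mitochondrial HSP70, was at 108, 82.4 and 92.2 RPKM in NT, miR-195 and miR-497 libraries. HSPD1 was at 761, 581 and 662 RPKM and HSPE1 at 289.8, 219.7 and 251 in that order. Ratios of these 3 mitochondrial genes were alike, 0.764 (0.748 to 0.779), 0.763 (0.756 to 0.771) and 0.758 (0.739 to 0.778) with miR-195, while miR-497 gave 0.855, 0.870 and 0.867. Of all 8 compared mitochondrial chaperones and J proteins 0 were called in total RNA with either mimic, and the middle log2 value of this group was -0.11 for miR-195 and 0.083 under miR-497.

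Among the HSP90 genes HSP90AA1 was lower than NT with both mimics, at 495, 354 and 369 RPKM. Its ratios were 0.715 (0.707 to 0.722) and 0.746 (0.739 to 0.753), within the fold for a call. HSP90AB1 was at 1075, 1013 and 846 RPKM and HSP90B1 at 565, 603 and 562. The pseudogene HSP90AB4P passed the fold with both mimics at 1.12, 0.718 and 0.447 RPKM, on as few as 21 reads in a library, with intervals of 0.467 to 0.883 and 0.278 to 0.574. The HSP110 genes HSPA4, HSPH1 and HSPA4L lay below the all-gene median with each mimic without reaching the fold, HSPA4L being lowest with miR-195 at 20.1, 14.97 and 15.8 RPKM.

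The J proteins held most of the remaining calls. DNAJB4, a J partner of cytosolic HSP70, was at 15.99 RPKM in NT cells, 8.64 with miR-195 and 9.43 under miR-497. Its ratios were 0.540 (0.502 to 0.581) and 0.589 (0.549 to 0.632). DNAJC24, which serves the synthesis of diphthamide on elongation factor 2, was at 4.54, 2.75 and 2.85 RPKM, with ratios of 0.607 (0.540 to 0.683) and 0.628 (0.560 to 0.704). Both genes were low with either mimic, but at 32.7% and 37.8% their transcripts are also poor in GC.

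DNAJC9, a J protein and histone chaperone of the nucleus, was at 33.7 RPKM in NT cells, 18.7 with miR-195 and 24.5 under miR-497. Its ratio of 0.554 (0.527 to 0.582) with miR-195 was a call, and that of 0.727 (0.695 to 0.760) with miR-497 was not. DNAJC5 (cysteine string protein), a J protein of secretory vesicles, was at 15.5, 9.40 and 17.8 RPKM, so that it lay below NT with miR-195 and above it under miR-497. The ratios were 0.608 (0.580 to 0.637) and 1.15 (1.11 to 1.20), and the difference between the mimics was not tested. At 57.9% its transcript is rich in GC. Its log2 difference from genes of similar GC content was -0.82 with miR-195 and -0.17 (-0.23 to -0.11) under miR-497. Against those genes DNAJC5 thus lay below with either mimic.

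On the higher side DNAJC27 was at 0.972 RPKM in NT cells, 1.62 with miR-195 and 1.21 under miR-497, a ratio of 1.66 (1.43 to 1.94) with miR-195, and it also carries TGCTGCT. DNAJC4, a small membrane J protein, was at 6.42, 8.94 and 12.7 RPKM, and HSPB1 at 25.4, 31.0 and 46.7. The ratios of this pair with miR-497, 1.99 (1.77 to 2.22) and 1.84 (1.71 to 1.98), stood beside a GC content of 63.7% and 65.3%.

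Set against genes of similar GC content, the 6 lower genes with miR-195 were the same 6 (6.26% of 10572 genes lower), and DNAJB9 joined DNAJC27 as higher (2 of 54 against 5.54%). With miR-497 only HSP90AB4P and HSPA1B were still lower (2 of 54 against 1.83%), and 0 were higher (2.75%). DNAJB4 had a log2 difference of -0.46 (interval -0.56 to -0.36) and DNAJC24 of -0.43 (-0.59 to -0.26) from genes of their GC content, while HSPB1 had 0.14 and DNAJC4 0.42.

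**Figure D3:**
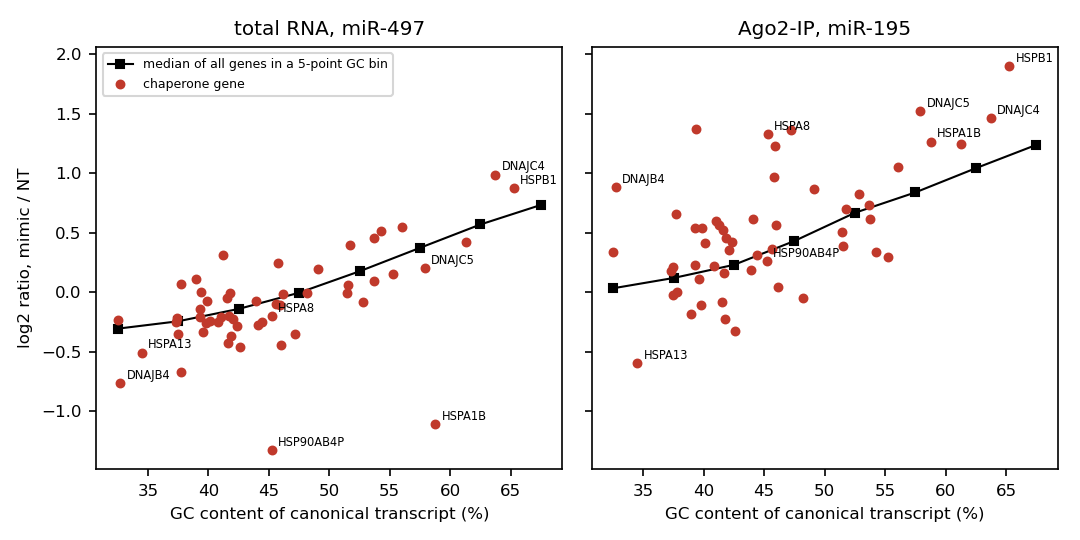
Log2 ratio of RPKM, mimic to NT, of the 54 chaperone genes (red) against the GC content of the canonical transcript in percent, for total RNA with miR-497 and for Ago2-IP with miR-195. Black squares are medians of all genes in 5-point bins, with the lowest bin open below 35% and the highest open above 65%, and they run from -0.31 to 0.73 on the left and from 0.034 to 1.24 on the right.

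Of the 54 genes 18 carried TGCTGCT in a 3′UTR, 34 had a 3′UTR without it and the pseudogenes HSP90AB2P and HSP90AB4P had none. With miR-195, 5 of the 18 were lower in total RNA and 0 of the 34, while over all genes the counts were 282 of 2959 and 335 of 7234. The median log2 change was -0.35 with the site and -0.079 without. With miR-497, 3 of the 18 and 0 of the 34 were lower, beside 153 of 2959 and 221 of 7234 over all genes, and the medians were -0.22 and -0.061. When GC content was taken into account, 5 of the 18 were still lower with miR-195, but 1 of the 18, HSPA1B, with miR-497. HSPA1A, which has no site, was under a mean RPKM of 1 and is not among the 34. It was listed at 0.732 RPKM in NT cells, 0.0421 with miR-195 and 0.319 under miR-497. As reads can be split between HSPA1A and HSPA1B, the HSPA1B calls cannot be assigned with certainty to the gene with the site. The difference between chaperone genes with and without a site was -0.27 with miR-195 and -0.16 under miR-497, and over all genes -0.10 and -0.089. Relative to genes alike in GC content it was -0.21 with miR-195 and -0.0038 under miR-497.

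Of the 18 genes 6 hold more than 1 site, and 3 of these were lower with miR-195 (HSPA1B, DNAJB4 and DNAJC5), with a median log2 change of -0.57. Of the 12 with 1 site 2 were lower (DNAJC9 and DNAJC24) and 1 was higher, with a median of -0.16. Both groups were broad: HSPA4L with 3 sites was at a ratio of 0.744 (0.708 to 0.782) with miR-195, and DNAJC10, an ER J protein that reduces disulfides, also has 3 and was at 0.955. DNAJC27 with 1 site was the highest gene. In HSPD1 and DNAJC7 the site occurs in a transcript other than the canonical one.

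A list of heat-inducible genes and a list of genes induced by ER stress were compared. Both lists were chosen with earlier results of these data known, so their counts are a description and not independent evidence. Of all 54 chaperone genes, 33 lay below the all-gene median with miR-195 and 38 under miR-497. The heat list holds HSPA1A, HSPA1B, HSPA6, HSPA8, HSPA4L, HSPH1, HSP90AA1, HSPD1, HSPE1, HSPB1, DNAJA1 and DNAJB1, of which HSPA8 and several others are also abundant without heat. The ER list holds HSPA5, HSP90B1, HSPA13, DNAJB9, DNAJB11, DNAJC1, DNAJC3 and DNAJC10. Of 12 heat-inducible genes 10 were compared, and 9 of these lay below the all-gene median with miR-195 and 9 under miR-497, with HSPB1 the exception in both. Only HSPA1B was called lower, with either mimic, and HSPB1 was called higher with miR-497. The median log2 change of the list was -0.38 with miR-195 and -0.23 under miR-497, and against genes of similar GC content -0.29 and -0.11, with 9 and 8 of the 10 below those genes. The summed RPKM of the list was 3018 in NT cells, 2339.8 with miR-195 and 2565 under miR-497, and HSPA8 alone gave 966, 767 and 842 of these.

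The summed RPKM of the 8 ER-stress genes was 1230.1, 1227 and 1187 in that order. Of the 8 genes 5 lay below the all-gene median with miR-195 and 8 under miR-497, with a median log2 change of -0.069 and -0.091 and 0 calls with either mimic. Furthest below was HSPA13 with miR-497, at 32.8 RPKM in NT cells and 23.1 with the mimic, a log2 change of -0.55 from the all-gene median. Relative to genes alike in GC content 4 and 5 of the 8 lay below. HSPA5 was at 342, 318 and 339 RPKM. DNAJB9, which binds BiP and the stress sensor IRE1, was at 22.3 RPKM in NT cells, 32.0 with miR-195 and 18.7 under miR-497, with ratios of 1.44 (1.37 to 1.504) and 0.839 (0.798 to 0.883), the widest split between the mimics in this list. The lists were not tested, and their members overlap with the families described above.

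**Figure D4:**
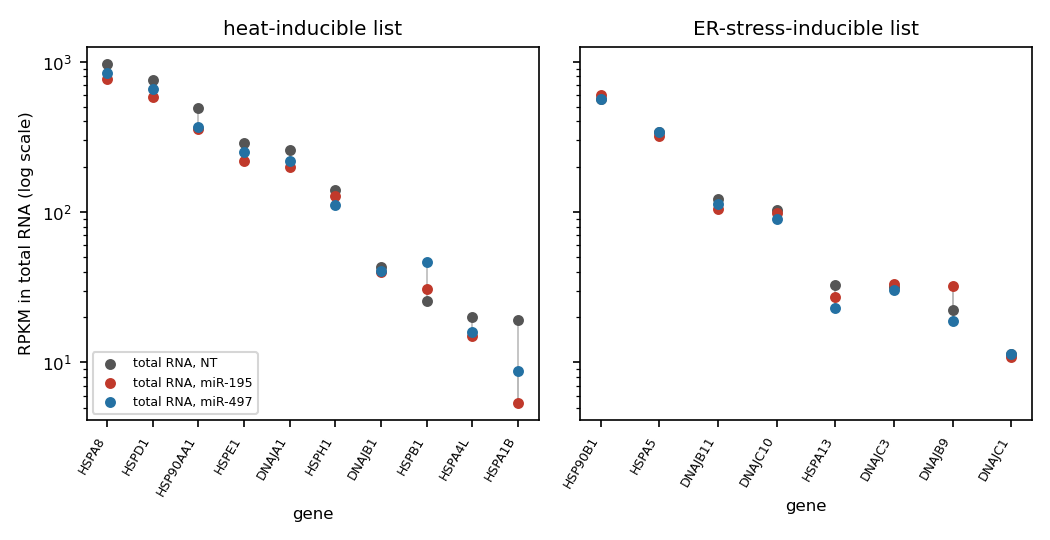
RPKM in total RNA on a log scale of the compared genes of the heat-inducible list (left, 10 genes) and the ER-stress-inducible list (right, 8 genes), 1 library per point. In the left panel NT points (gray) lie highest for 9 of 10 genes, with HSPB1 the exception, and HSPA1B runs from 19.0 down to 5.36 RPKM.

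Promoters from 250 bases before to 50 bases after the gene start (RefSeq, GRCh38.p14) were at hand for 65 of the 81 genes. A heat shock motif, taken as GAA, TTC and GAA in a row with 2 bases between them on either strand, was found in DNAJA1, DNAJB6, HSPA6 and HSPA8 (6.15% of 65, against 0.487% of 27305 promoters). An ER stress motif, taken as CCAAT and CCACG with 9 bases between them on either strand, was found in HSPA5 and HSP90B1 (3.08% against 0.0806%). The ratios with miR-195 of the 3 compared genes with the heat shock motif were 0.772 for DNAJA1, 1.21 for DNAJB6 and 0.795 for HSPA8. A match describes these letters in this window and not the binding of a factor.

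The Ago2-IP libraries ask which mRNAs came down with Ago2. All genes together were shifted here, with a median ratio of 1.42 for miR-195 and 0.842 under miR-497, so changes were read against these medians. With miR-195, 9 of the 54 chaperone genes were higher (18.6% of 10881 genes) and 5 lower (15.2%). In falling order the higher genes were HSPB1, DNAJC5, DNAJC4, DNAJC12, HSP90AB1, HSPA8, HSPA1B, DNAJB2 and DNAJB11, and the lower ones were HSPA13, DNAJC9, HSP90B1, DNAJC19 and DNAJC2. With miR-497, 2 were higher (6.5% of 10850 genes), DNAJC17 and DNAJC25, and 3 lower (7.67%), HSPB1, DNAJC19 and DNAJB9. Split by TGCTGCT in a 3′UTR, 2 of the 18 genes with it and 7 of the 34 without were higher with miR-195. Over all genes these counts were 495 of 2957 and 1375 of 7236. The median log2 change of the chaperone genes was 0.34 with the site and 0.53 without. With miR-497 the medians were -0.20 and -0.25, with 1 gene higher in each group.

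HSPA8 was at 188 RPKM in Ago2-IP of NT cells, 473 with miR-195 and 153 under miR-497. The ratios were 2.51 (2.46 to 2.56) and 0.814 (0.792 to 0.837). DNAJC5 was at 4.66, 13.4 and 3.62 RPKM, with ratios of 2.88 (2.66 to 3.12) and 0.777 (0.691 to 0.872). Both candidates were thus higher with miR-195 alone, and the value with miR-497 lay close to the all-gene median of 0.842.

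HSP90AB1, which has no TGCTGCT in a 3′UTR, was at 90.8, 234 and 83.4 RPKM, a ratio with miR-195 of 2.58 (2.51 to 2.65). DNAJB11, an ER J protein also without a 3′UTR site, was at 15.9, 37.2 and 15.4 RPKM, a ratio of 2.34 (2.16 to 2.53). These values with miR-195 were close to those of the candidates. Of the 8 ER-stress genes listed above DNAJB11 was called higher, and HSP90B1 and HSPA13 were called lower. HSP90B1 was at 81.7, 70.01 and 97.1 RPKM, HSPA5 at 31.9, 32.9 and 33.8, and HSPA13, an HSP70 of microsomes, at 4.14, 2.75 and 3.51.

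HSPB1 took opposite sides. It was at 3.44 RPKM in Ago2-IP of NT cells, 12.9 with miR-195 and 0.942 under miR-497, the last on about 7.8 reads. The ratios were 3.73 (2.96 to 4.71) and 0.273 (0.162 to 0.463). DNAJC19, a J protein of the mitochondrial inner membrane, was lower with either mimic relative to all genes, at 1.34, 1.18 and 0.567 RPKM, with as few as 15 reads.

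Against genes of similar GC content, 7 of the 54 were higher in Ago2-IP with miR-195 (13.5%) and 1 was lower (10.5%). HSPA8, HSP90AB1, DNAJB11, DNAJC5, DNAJC12 and HSPB1 were still higher, DNAJB4 was added and HSPA13 was the lower gene. HSPA1B, DNAJC4 and DNAJB2, with GC contents of 58.8%, 63.7% and 61.3%, were then within the fold. With miR-497 the genes called were unchanged, 2 higher (6.58%) and 3 lower (6.4%).

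The fold enrichment score divides the ratio of Ago2-IP to total RNA with a mimic by the same ratio in NT cells, so a gene scores high when it gained in Ago2-IP, lost in total RNA, or both. With miR-195, 8 of the 54 scored at least 1.5-fold above the all-gene median score of 1.41 (16.1% of 10811 genes). Another 6 scored at least 1.5-fold below it (12.2%). HSPA1B scored 8.54 (7.16 to 10.2), DNAJC5 4.74 (4.32 to 5.19), DNAJB4 3.41 (2.86 to 4.08), HSPA8 3.16 (3.10 to 3.23), HSPB1 3.06 (2.39 to 3.92), HSP90AB1 2.74 (2.66 to 2.81), DNAJB11 2.73 (2.51 to 2.96) and DNAJC12, a cofactor of aromatic amino acid hydroxylases, 2.40 (1.66 to 3.47). These scores are built differently. The total RNA part is larger for HSPA1B, where the log2 change was -1.83 in total RNA and 1.27 in Ago2-IP, while for HSP90AB1 the values were -0.086 and 1.37.

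With miR-497, 6 of the 54 scored at least 1.5-fold above the all-gene median of 0.828 (8.81% of 10786 genes). Another 4 scored at least 1.5-fold below it (18.3%). HSP90AB4P scored 2.64 (1.57 to 4.44), DNAJC25, a membrane J protein, 1.81 (1.42 to 2.32), DNAJB4 1.48 (1.18 to 1.84), HSPA1B 1.31 (1.02 to 1.68), DNAJC24 1.26 (0.925 to 1.71) and DNAJB14 1.25 (1.04 to 1.51). DNAJC5 scored 0.674 (0.596 to 0.762) and HSPA8 0.934 (0.908 to 0.962). DNAJC25 scored 1.79 (1.42 to 2.27) with miR-195, within the fold of the higher median there. The lower genes were HSPB1, DNAJC19, DNAJB2 and DNAJC4, and of these the scores of DNAJB2 and DNAJC4 were near those of genes of their GC content, with log2 differences of -0.046 and 0.027.

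Against genes of similar GC content 9 of 54 scores with miR-195 were higher (13.3%) and 1 was lower (8.99%), and with miR-497 4 were higher (5.91%) and 4 lower (7.79%). With miR-195 HSPB1 left the higher genes and HSP90AA1 and HSPE1 joined them, and HSP90B1 was the lower gene. With miR-497 HSPA1B, DNAJC25 and HSP90AB4P were still higher and DNAJC17 joined them, while HSPB1 and DNAJC19 were still lower and DNAJB9 and DNAJC15 joined them. The median log2 score of chaperone genes with a site less that of those without was -0.068 with miR-195 and 0.24 under miR-497. Over all genes it was 0.11 and 0.076. Against genes of similar GC content the chaperone values were 0.059 and 0.12.

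**Figure D5:**
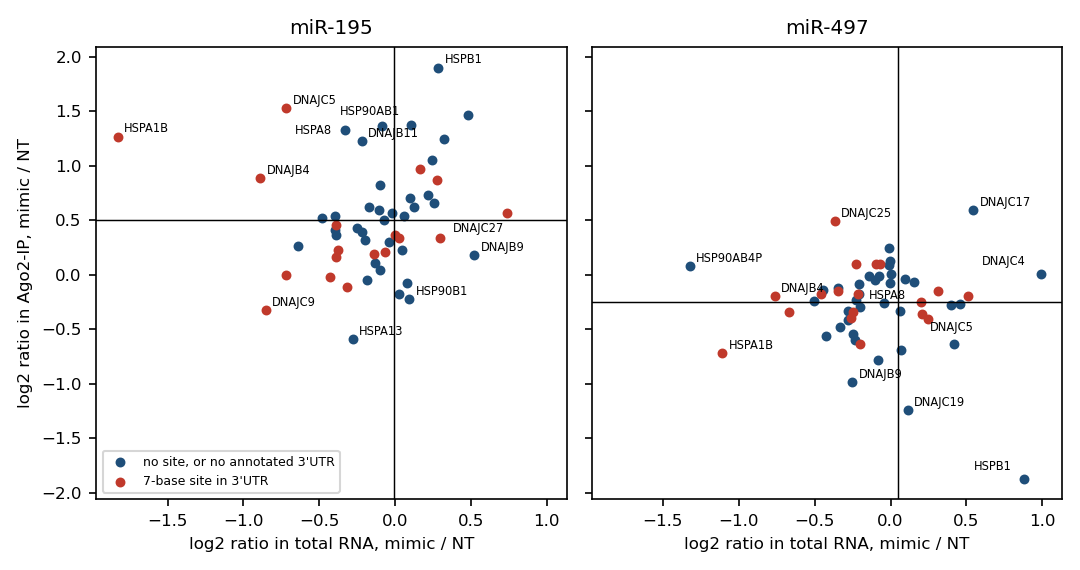
Log2 ratio of RPKM in Ago2-IP against that in total RNA, mimic to NT, of the 54 chaperone genes with miR-195 (left) and miR-497 (right). Lines are the medians of all genes, red points carry TGCTGCT in a 3′UTR, and HSPA1B, DNAJC5, HSPA8 and DNAJB4 lie in the upper left part with miR-195, at log2 values in Ago2-IP of 1.27, 1.53, 1.33 and 0.88.

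Genes that work with the chaperones but are no members by name were counted by the same rule. Of 31 compared co-chaperones and heat shock factors, 3 were lower in total RNA with miR-195, namely BAG4, CDC37L1 and CHORDC1, and 0 were higher. Over all genes 6.31% were lower and 6.4% higher. With miR-497 CDC37L1 and CHORDC1 were lower (3.99% of all genes) and HSF1 and STUB1 higher (10.1%). In the comparison with genes alike in GC content, CDC37L1 and CHORDC1 were lower with miR-195 and 0 of the 31 were called with miR-497. CDC37L1, a relative of the kinase adaptor of HSP90, was at 9.93 RPKM in NT cells, 5.64 with miR-195 and 6.35 under miR-497, and CHORDC1, an HSP90 partner, at 33.4, 19.8 and 21.9. Of the 8 subunits of the cytosolic chaperonin CCT 8 lay below the all-gene median in total RNA with miR-195 and 6 under miR-497, and 0 were called. TCP1, named here after its values were seen, was the subunit called higher in Ago2-IP with miR-195, at 32.0, 97.5 and 28.7 RPKM, and relative to GC content TCP1 and CCT5 were higher.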

How the data were processed

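RPKM per gene were deposited by the authors, who ran CASAVA 1.7 (ELANDv2 aligner, hg19) on single reads of 36 bases. The annotation, the handling of reads with several matches and the libraries with poly-A selection are not given in the sources used here. All 6 value columns were matched to labels (0 unmatched). Lines of one symbol were averaged. The members and lists were chosen with earlier results of these data known. Log2 ratios used no pseudocount, values above 0 in the libraries compared and a mean RPKM of at least 1. With 1 library per group there was no test and no p-value. Whole reads were recovered from RPKM steps for 35 of 54 genes (implied length within 1.5-fold of an annotated transcript). For the other 19 reads were approximated from transcript length. Named genes were HSPA8, DNAJC5, the 10 highest members, the 5 furthest each way per comparison, members with a site and list members. Procedures were tested on simulated data. Counting intervals cover neither cultures nor PCR copies. Python 3.11.15, numpy 2.4.6, pandas 2.3.3, numba 0.67.0 and matplotlib 3.10.9 were used.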

Additional observations from a re-analysis of the deposited data

Results flagged for a closer look

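HSPB1, the small HSP also called HSP27, stood apart because its values with the mimics lay on opposite sides of all genes. In Ago2-IP its log2 change minus the all-gene median was 1.40 under miR-195 and -1.62 under miR-497. Its log2 fold enrichment score minus the all-gene median was 1.12 and -2.48. The difference between the mimics was not tested, since there is 1 library per condition. The Ago2-IP library with miR-497 held about 7.8 reads of the gene, 25.9% of its 36-base windows have a second copy in the genome and its transcript has 65.3% GC. Against genes of similar GC content the Ago2-IP values were 0.66 and -1.32 and the scores 0.54 and -1.48. The part of these properties in the result was not tested.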

How the results depend on the processing

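Counts are of chaperone genes past the fold. Their order is total RNA with miR-195 and miR-497, Ago2-IP with miR-195 and miR-497, and score with miR-195 and miR-497. In this order 7, 6, 14, 5, 14 and 10 of 54 were reported. Settings with another filter on level, or without genes with repeated windows, compare another set of genes than these 54. The share over all genes is not given beside the alternative counts here, so they only describe how the calls depend on the settings. At 2-fold they were 1, 2, 3, 1, 5 and 4. With no filter on low values the count became 16, 17, 10, 22 and 17 for all but Ago2-IP with miR-195. A mean RPKM of at least 5 left 4 for total RNA with miR-195, 3 for Ago2-IP with miR-497 and 5 for the score with miR-497. A pseudocount of 1 gave 4 for total RNA with miR-195, 9 and 2 for Ago2-IP and 6 for the score with miR-497. Counted from no change instead of the all-gene median, the counts were 7, 6, 21, 10, 28 and 13. Without genes with repeated windows, chosen after seeing the data, Ago2-IP with miR-195 gave 9. Against genes of similar GC content, total RNA with miR-497 gave 2 and Ago2-IP with miR-195 gave 8, and the chaperone median less that of all genes moved from -0.17 to -0.083 in total RNA with miR-497, from -0.062 to 0.12 in Ago2-IP with miR-195 and from 0.19 to 0.028 for the score with miR-497. Aligning libraries by the upper quartile moved it from -0.094 to -0.041 in total RNA with miR-195. The difference between genes with and without a site was -0.16 for GCTGCT, -0.48 for TGCTGCTA and -0.21 with similar GC content for miR-195, and 0.0065, which is reversed, -0.43 and -0.0038 for miR-497. With libraries divided by their median RPKM the scores of HSPA8 were 2.20 and 1.21 and of DNAJC5 3.30 and 0.873, and with a pseudocount of 1 the miR-195 score of DNAJC5 was 4.03. The cause of these differences between settings was not tested, for the GC alternative as for the others. No paired analysis was possible because each condition has 1 library of each kind. Counting intervals are wide for genes with few reads and say nothing of the spread between cultures.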
